A study of Homo sapiens with 12 samples.

Results

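The 8 genes described here are LRRC4, CLSTN2, ADGRA1, RND1, PHOSPHO1, TG, C3orf20 and CCDC17. They were picked by name because their counts were low in cells with an empty vector and higher in cells with EWS-FLI1. They are 8 of the 60645 gene names counted, and all 8 were among the 20377 genes that passed the filter on low counts and were tested. Their rise with EWS-FLI1 is therefore what chose them and is given as a description, while differences between the ARID1A states are tested. The tests use the same libraries that chose the genes. They are thus not independent of the choice where the level or rise in a single state chose a gene.

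PolyA RNA was sequenced from 12 libraries of HEK-293T, a human embryonic kidney cell line, carrying an ARID1A knockout (the line named 12KO). Every group carries this knockout. On it, the cells overexpressed an empty vector (no ARID1A), wild-type ARID1A (WT) or ARID1A without the segment IDR1b (ΔIDR1b), and each of these 3 ARID1A states received EWS-FLI1 or a further empty vector, with 2 libraries in each of the 6 groups. The stated aim was the role of IDR1b in transcription directed by EWS-FLI1. The labels' treatment text gives 2 µg of a pcDNA plasmid with EWS-FLI1 and 48 h of further growth for all samples alike, so the amount of empty vector is not given separately. A single knockout line was used, both proteins were supplied by overexpression, and the labels do not say whether repeats 1 and 2 of a group were separate cultures, so p-values measure the spread between these libraries only.

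EWS-FLI1 is the fusion protein that drives most Ewing sarcomas. It joins the activating N-terminal part of EWSR1 to the DNA-binding ETS domain of FLI1, which recognises GGAA, and at repeats of GGAA it can turn otherwise closed DNA into an active enhancer. ARID1A binds DNA within the canonical BAF (SWI/SNF) complex, which moves nucleosomes with the energy of ATP and is recruited by EWS-FLI1, and IDR1b lies in an intrinsically disordered stretch of ARID1A.

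Libraries held 11702251 to 14445379 counts. ARID1A averaged 156 CPM (counts scaled to library sizes adjusted by TMM, the trimmed mean of M-values) in empty-vector libraries of no ARID1A and 160 CPM in its EWS-FLI1 libraries. It averaged 2052 and 2063 CPM in WT and 2782 and 2610 CPM in ΔIDR1b. FLI1 had 0 to 2 counts in each empty-vector library and in the EWS-FLI1 groups averaged 1756 CPM without ARID1A, 3562 CPM with WT and 1893 CPM with ΔIDR1b. EWSR1, part of which is in the fusion, averaged 388 to 529 CPM in the 3 empty-vector groups and 2039 to 3589 CPM in the 3 with EWS-FLI1. Of 10 genes listed for an embryonic kidney line, 9 reached 1 CPM in all 12 libraries (summed level 983 to 1290 CPM in empty-vector and 912 to 1220 CPM in EWS-FLI1 libraries), while the tenth, NEFM, had 2 counts in all. Markers of endothelium (0 of 3), hepatocytes (0 of 2), thyroid follicular cells (1 of 5, NKX2-1), fibroblasts (2 of 4) and Ewing sarcoma cells (3 of 5) reached 1 CPM in all 12 libraries in the numbers given, and no marker was at 0 in all of them. Their part in the results was not tested.

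The label of near-silent genes held for some of the 8 and not for others. Over the 6 empty-vector libraries ADGRA1 averaged 0.0368 CPM (3 counts in all), TG 0.111 CPM (9 counts) and C3orf20 0.204 CPM (17 counts), and these were the only members under 1 CPM. CLSTN2 averaged 1.06 CPM, CCDC17 and PHOSPHO1 1.66 CPM each, LRRC4 2.33 CPM and RND1 4.96 CPM. RND1 lay at the 39.8th percentile of the tested genes by this mean and ADGRA1 at the 0.0196th. Per length, on the RPKM scale, the empty-vector means ran from 1.26 for RND1, 0.693 for PHOSPHO1, 0.529 for LRRC4 and 0.499 for CCDC17 down to 0.0727 for CLSTN2, 0.0591 for C3orf20, 0.00995 for TG and 0.00844 for ADGRA1. With EWS-FLI1 the order was unchanged, from 3.77 for RND1 to 0.162 for ADGRA1. The genes are thus low rather than silent, with 3 near the limit of detection. In bulk RNA, fewer cells expressing a gene and less RNA per cell cannot be told apart.

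Because EWS-FLI1 binds GGAA, the 250 bases upstream of the RefSeq start sites were searched for GGAA on both strands (TTCC on the printed strand). Windows were matched for 6 of the 8 members in the RefSeq table of GRCh38.p14: LRRC4, CLSTN2, ADGRA1 (with 2 start sites), PHOSPHO1, C3orf20 and CCDC17. The windows of CLSTN2, C3orf20 and the inner start site of ADGRA1 are printed 5′ to 3′ on the gene's strand, since they hold few, intermediate and many copies and no exon of the annotation. Capitals mark GGAA or its reverse complement TTCC. They are chr3:139934935-139935184 (plus strand), chr3:14674891-14675140 (plus strand) and chr10:133101996-133102245 (plus strand).
CLSTN2: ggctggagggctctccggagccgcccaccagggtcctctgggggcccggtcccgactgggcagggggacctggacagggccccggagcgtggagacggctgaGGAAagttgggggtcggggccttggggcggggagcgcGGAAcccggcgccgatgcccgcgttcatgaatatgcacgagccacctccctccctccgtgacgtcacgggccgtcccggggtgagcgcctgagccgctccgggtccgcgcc
C3orf20: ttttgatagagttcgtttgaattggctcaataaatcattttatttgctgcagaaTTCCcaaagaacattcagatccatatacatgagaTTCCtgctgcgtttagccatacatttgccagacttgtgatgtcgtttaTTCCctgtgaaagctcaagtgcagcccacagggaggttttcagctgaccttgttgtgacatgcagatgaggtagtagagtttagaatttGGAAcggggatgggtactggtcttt
ADGRA1 inner start: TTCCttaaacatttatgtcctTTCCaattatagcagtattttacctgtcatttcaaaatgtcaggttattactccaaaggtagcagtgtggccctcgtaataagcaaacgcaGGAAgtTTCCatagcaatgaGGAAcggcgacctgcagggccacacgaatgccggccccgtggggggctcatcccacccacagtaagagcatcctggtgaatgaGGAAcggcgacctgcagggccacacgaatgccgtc

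GGAA occurred 2 times upstream of CLSTN2, 4 times upstream of C3orf20 and 6 times upstream of the inner ADGRA1 start. The other windows held 1 copy (LRRC4), 2 copies (the outer ADGRA1 start) and 3 copies each (PHOSPHO1 and CCDC17). Over all 35116 RefSeq windows of this length the median was 3 copies, 92.7% held at least 1, 34.3% at least 4 and 9.14% at least 6. None of the 7 member windows held 2 copies in a row, as 3.06% of all windows did. Binding was not measured, and sites farther away were not searched.

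Gene coordinates are those of GRCh38 in the authors' annotation. LRRC4 lies at chr7:128027071-128032107 on the minus strand, inside the body of SND1 on the plus strand. CLSTN2 spans chr3:139935185-140577397 on the plus strand and ADGRA1 spans chr10:133087924-133131675 on the plus strand. RND1 lies at chr12:48857145-48865870 on the minus strand and PHOSPHO1 at chr17:49223366-49230787 on the minus strand. TG spans chr8:132866958-133134903 on the plus strand, C3orf20 spans chr3:14675141-14773036 on the plus strand, and CCDC17 lies at chr1:45620044-45624057 on the minus strand. No strand option was set in the counting, so antisense reads over exons that no other gene shares would enter a member's count. ADGRA1 shares 4.94% of its exonic bases with other genes and TG 0.862%, and the other members share none.

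LRRC4, a leucine-rich repeat adhesion protein of the postsynaptic membrane that binds netrin-G2, stood in no ARID1A at 0.594 and 1.64 CPM without EWS-FLI1 and at 5.02 and 4.23 CPM with it. In WT it had 2.38 and 1.79 CPM against 10.8 and 13.4 CPM. In ΔIDR1b the values were 3.94 and 3.64 CPM against 12.6 and 14.9 CPM. In all 3 states both EWS-FLI1 libraries were above both empty-vector libraries, and the EWS-FLI1 libraries of WT and ΔIDR1b overlapped each other and lay above those of no ARID1A. The ratio of EWS-FLI1 to empty vector, with its 95% exact counting interval, was 4.14 (2.74 to 6.43) without ARID1A, 5.81 (4.36 to 7.86) for WT and 3.64 (2.93 to 4.56) for ΔIDR1b. Counting intervals cover counting error only, not the spread between libraries.

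CLSTN2 encodes calsyntenin 2, a cadherin-family membrane protein of synapses. In no ARID1A it had 0.223 and 0.747 CPM without EWS-FLI1 and 0.681 and 1.90 CPM with it, so the groups overlapped. In WT it had 0.891 and 1.12 CPM against 5.11 and 5.37 CPM. In ΔIDR1b it had 1.46 and 1.93 CPM against 10.8 and 8.60 CPM. The order with EWS-FLI1 was ΔIDR1b above WT above no ARID1A, with no overlap between neighbours. The ratios were 2.66 (1.34 to 5.55), 5.22 (3.44 to 8.20) and 5.72 (4.19 to 7.97) in no ARID1A, WT and ΔIDR1b.

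ADGRA1 encodes an adhesion G protein-coupled receptor and was the lowest member. Its empty-vector counts were 0 and 2 without ARID1A, 0 and 0 with WT and 0 and 1 with ΔIDR1b. With EWS-FLI1 they were 3 and 4, then 4 and 8, then 24 and 15 in the same order of states. Only ΔIDR1b libraries exceeded 10 counts, and those of no ARID1A and WT overlapped (0.255 and 0.345 CPM against 0.301 and 0.605 CPM). The ratio was 4.03 (0.767 to 39.7) in no ARID1A and 37.8 (6.40 to 1533) in ΔIDR1b. In WT it was 4.05 with 3 counts as the floor of the empty-vector group, a value that leaves out the counting error of the EWS-FLI1 counts. With 0 to 2 counts in the denominators these ratios are barely bounded.

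RND1 encodes an atypical small GTPase that stays bound to GTP and loosens the actin cytoskeleton. In no ARID1A it had 4.68 and 3.36 CPM without EWS-FLI1 and 8.68 and 6.90 CPM with it. In WT it had 7.43 and 4.70 CPM against 19.5 and 25.0 CPM. In ΔIDR1b it had 4.74 and 4.85 CPM against 14.4 and 14.7 CPM. The empty-vector levels of ΔIDR1b fell inside the range of WT, whereas with EWS-FLI1 the order was WT above ΔIDR1b above no ARID1A without overlap, a different order from that of CLSTN2. The ratios were 1.94 (1.52 to 2.48), 3.67 (3.08 to 4.397) and 3.04 (2.49 to 3.72) in no ARID1A, WT and ΔIDR1b.

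PHOSPHO1 encodes a phosphatase that frees phosphate from phosphocholine and phosphoethanolamine during mineralization of bone and cartilage. In no ARID1A it had 0.297 and 1.19 CPM without EWS-FLI1 and 2.64 and 3.45 CPM with it. In WT it had 1.34 and 1.27 CPM against 7.51 and 6.81 CPM, and in ΔIDR1b 3.43 and 2.43 CPM against 11.4 and 13.3 CPM. Both vectors showed the order ΔIDR1b above WT above no ARID1A, without overlap between neighbours. The ratios were 4.09 (2.46 to 7.09), 5.50 (3.82 to 8.13) and 4.23 (3.31 to 5.45).

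TG encodes thyroglobulin, the protein on which the thyroid builds its hormones. Its empty-vector counts were 0 and 1 without ARID1A, 1 and 4 with WT and 2 and 1 with ΔIDR1b. With EWS-FLI1 the counts were 3 and 10, then 32 and 23, then 48 and 37, and these did not overlap between states (0.255 and 0.863 CPM, 2.40 and 1.74 CPM, 3.39 and 2.57 CPM). The ratios were 14.96 (2.25 to 636), 11.1 (4.50 to 35.7) and 27.5 (9.09 to 136), resting on 1, 5 and 3 empty-vector counts.

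C3orf20 and CCDC17 encode proteins without a role given here. Without EWS-FLI1, C3orf20 had 0 and 0 counts without ARID1A, 0 and 1 with WT and 5 and 11 with ΔIDR1b. With EWS-FLI1 it had 7 and 5, then 10 and 5, then 26 and 14 counts. It was thus the one member of the 3 lowest with more than a few empty-vector counts in any state, and these were in ΔIDR1b. Its ratio was 15.2 (2.34 to 640) in WT on 1 empty-vector count and 2.43 (1.33 to 4.64) in ΔIDR1b. In no ARID1A it was 4.604 at the floor of 3 counts over the group, which leaves out the counting error of the EWS-FLI1 counts.

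In no ARID1A, CCDC17 had 1.26 and 1.27 CPM without EWS-FLI1 and 2.13 and 2.42 CPM with it. In WT it had 0.520 and 1.12 CPM against 2.40 and 2.72 CPM, and in ΔIDR1b 2.99 and 2.78 CPM against 5.37 and 4.86 CPM. The EWS-FLI1 libraries of no ARID1A and WT overlapped, and the empty-vector libraries of ΔIDR1b lay above them. The ratios were 1.79 (1.14 to 2.85), 3.13 (1.91 to 5.32) and 1.77 (1.34 to 2.36).

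**Figure D1:**
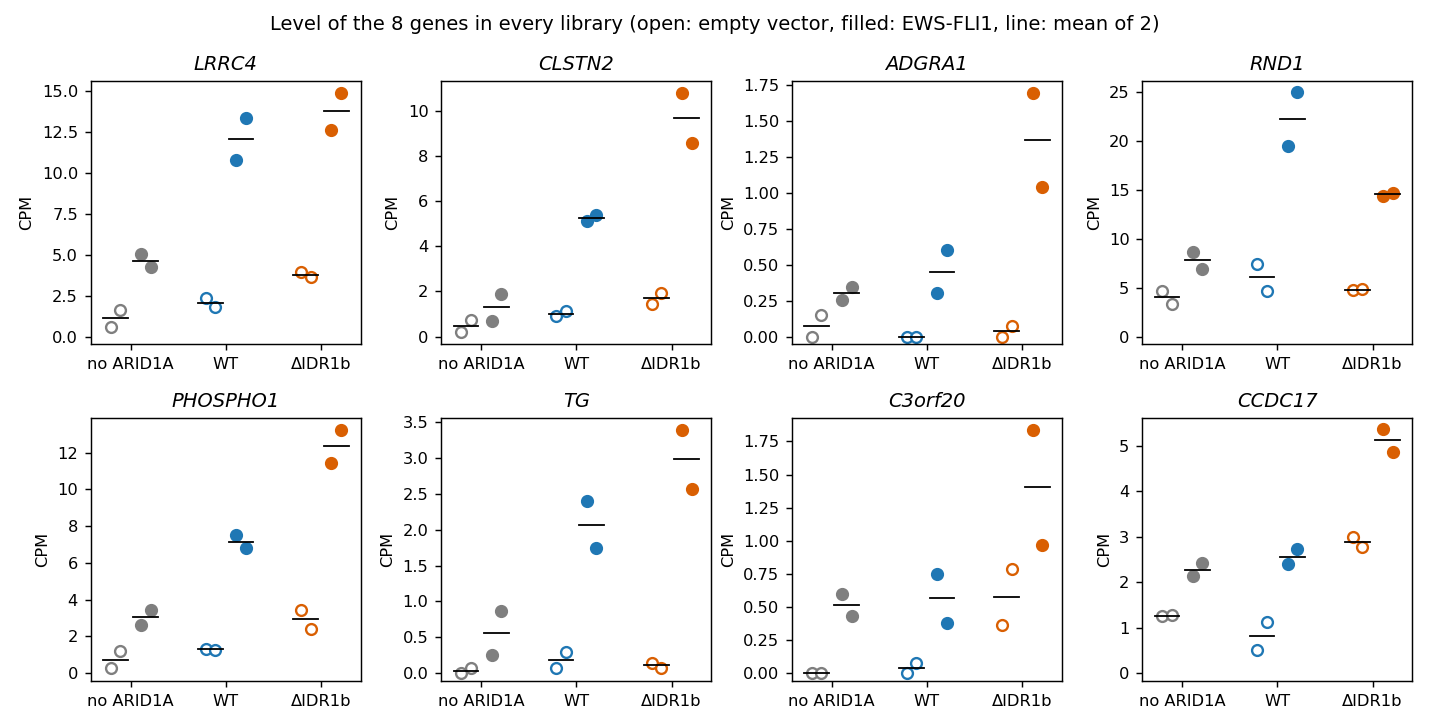
Level of each gene in CPM (y axis, linear) in the 12 libraries by ARID1A state (x axis), with open points for the empty vector, filled points for EWS-FLI1 and lines for the mean of 2. The filled points lie above the open points of the same state in 23 of 24 panels and states, the exception being CLSTN2 in no ARID1A.

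Across genes and states, the libraries with EWS-FLI1 lay above those with the empty vector in 23 of 24 pairs of gene and state. The genes were chosen for this rise, and the share of all tested genes lying apart is not given here. The 8 genes had a median ratio of 4.06 without ARID1A, 5.36 with WT and 3.93 with ΔIDR1b, while the median of all tested genes was 0.998, 0.997 and 1.00. In no ARID1A 6 members reached a ratio of 2, in WT 8 and in ΔIDR1b 7, against 3.36%, 4.35% and 2.82% of all tested genes. For all tested genes, empty-vector group counts under 3 were raised to 3, while for members only counts of 0 were. Since the rule used these contrasts, nothing is read from these shares. Of the 6 genes with counts in every group, the ratio was highest in WT for 4, in ΔIDR1b for 2 and in no ARID1A for 0. Without its first empty-vector library the median in no ARID1A was 2.31. Without the second it was 2.41, but ADGRA1, TG and C3orf20 then had 0 empty-vector counts and stood at the bound of the 3-count floor, while the ratios of LRRC4, CLSTN2 and PHOSPHO1 were 7.79, 5.77 and 10.2. The 2.41 therefore comes from the floor and does not show a smaller ratio.

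By edgeR's quasi-likelihood test with Benjamini-Hochberg adjustment over all tested genes (adjusted p under 0.05), 1 member was called higher with EWS-FLI1 in no ARID1A (LRRC4, with 0.0393% of tested genes called higher). In WT 4 were called (LRRC4, CLSTN2, RND1 and PHOSPHO1, with 0.152% of tested genes). In ΔIDR1b 5 were called, these 4 and TG (0.123% of tested genes). Averaged over the 3 states all 8 were called, with 0.294% of tested genes called higher and 0.466% in either direction. The genes were chosen for this rise in these libraries, so the calls are a description and nothing is read from their number. The average count of 8 fell to 5 without the second EWS-FLI1 library of no ARID1A, without the first empty-vector library of WT or without the first EWS-FLI1 library of ΔIDR1b. ADGRA1, C3orf20 and CCDC17 were the members lost in each case, and no other member was lost by leaving out any 1 library.

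**Figure D2:**
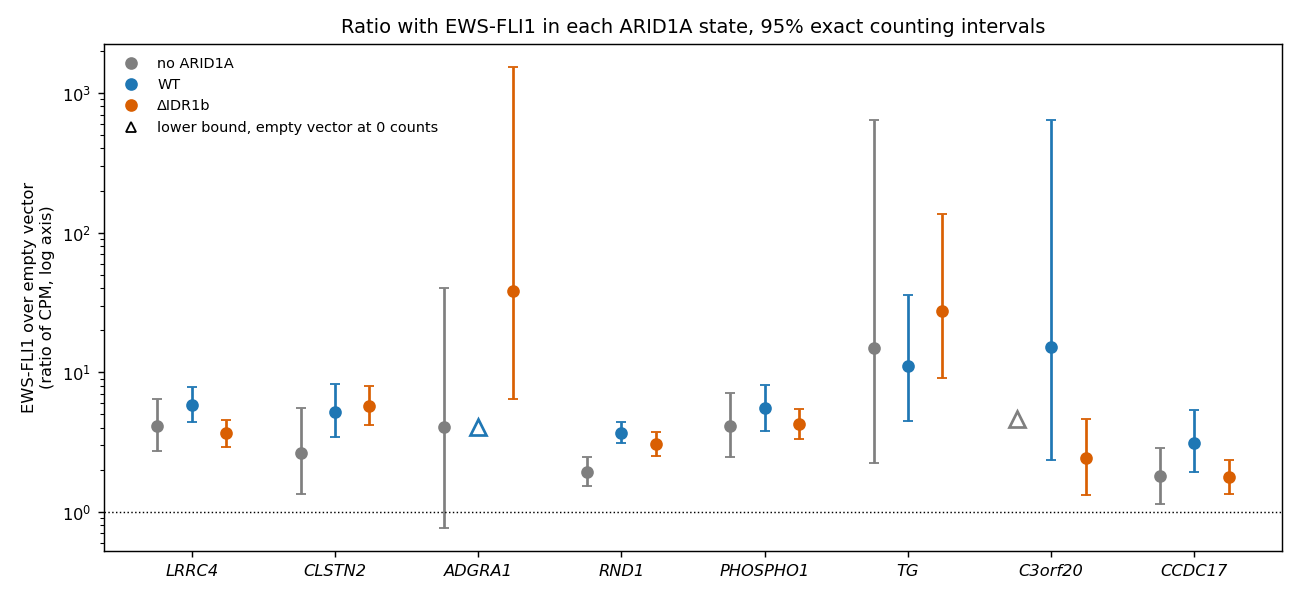
Ratio of the CPM with EWS-FLI1 to that with the empty vector (y axis, log scale) for each gene and ARID1A state, with 95% exact counting intervals as bars. Open triangles mark values at the floor of 3 counts where the empty-vector group had 0 counts. These values leave out the counting error of the EWS-FLI1 counts. Of 22 intervals 21 lie above 1, and those of TG, ADGRA1 and C3orf20 are the widest.

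The question of whether the ARID1A state changes the rise was put to 24 differences between states (8 genes, 3 pairs of states), each tested as an interaction in the fit over all genes. None of the 8 genes was called in any of the 3 pairs by edgeR or by DESeq2. By edgeR 1, 1 and 0 members had an unadjusted p under 0.05 for WT minus no ARID1A, ΔIDR1b minus no ARID1A and ΔIDR1b minus WT. Calls were rare among all genes too, with 0.0245%, 0.0196% and 0.0% of tested genes in these pairs, and 884, 702 and 741 genes at an unadjusted p under 0.05.

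RND1 had the most precise difference of the 8. Its log2 rise was larger in WT than in no ARID1A by 0.92 (95% interval 0.23 to 1.62), the only 1 of 20 estimated intervals that left out 0. The unadjusted p of 0.011 became 1.00 after Benjamini-Hochberg adjustment in edgeR's test. As a ratio of ratios this was 1.89, with a counting interval of 1.39 to 2.57. For ΔIDR1b minus no ARID1A the RND1 difference was 0.65 (-0.06 to 1.35), and for ΔIDR1b minus WT it was -0.28 (-0.94 to 0.39).

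For LRRC4 the log2 rise differed by 0.49 (-0.49 to 1.47) between WT and no ARID1A, by -0.19 (-1.12 to 0.75) between ΔIDR1b and no ARID1A and by -0.68 (-1.51 to 0.16) between ΔIDR1b and WT. Its counting interval for ΔIDR1b over WT, a ratio of 0.627 (0.430 to 0.907), left out 1 while the interval that includes the spread between libraries did not. For CLSTN2 the same 3 differences were 0.97 (-0.51 to 2.45), 1.11 (-0.31 to 2.53) and 0.13 (-1.04 to 1.31). The intervals of CLSTN2 hold 0 and also large differences, so neither equality nor a difference is shown.

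For PHOSPHO1 the differences were 0.43 (-0.76 to 1.62), 0.05 (-1.07 to 1.17) and -0.38 (-1.37 to 0.61), and for CCDC17 they were 0.80 (-0.48 to 2.09), -0.02 (-1.17 to 1.13) and -0.82 (-2.01 to 0.37). The low genes carried little information on this question. The interval of TG ran from -4.33 to 3.48 for WT minus no ARID1A and that of ADGRA1 from -1.64 to 8.11 for ΔIDR1b minus no ARID1A. For C3orf20 the counting interval put the ratio of ratios for ΔIDR1b over no ARID1A at 0.881 or less (unadjusted p = 0.0356 and adjusted p = 1.00 in edgeR's test), beside its 16 empty-vector counts in ΔIDR1b and 0 in no ARID1A. Over the 3 pairs of states 4 of 24 counting intervals left out 1. These intervals leave out the spread between libraries, and the share of all tested genes is not given here, so nothing is read from that count.

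**Figure D3:**
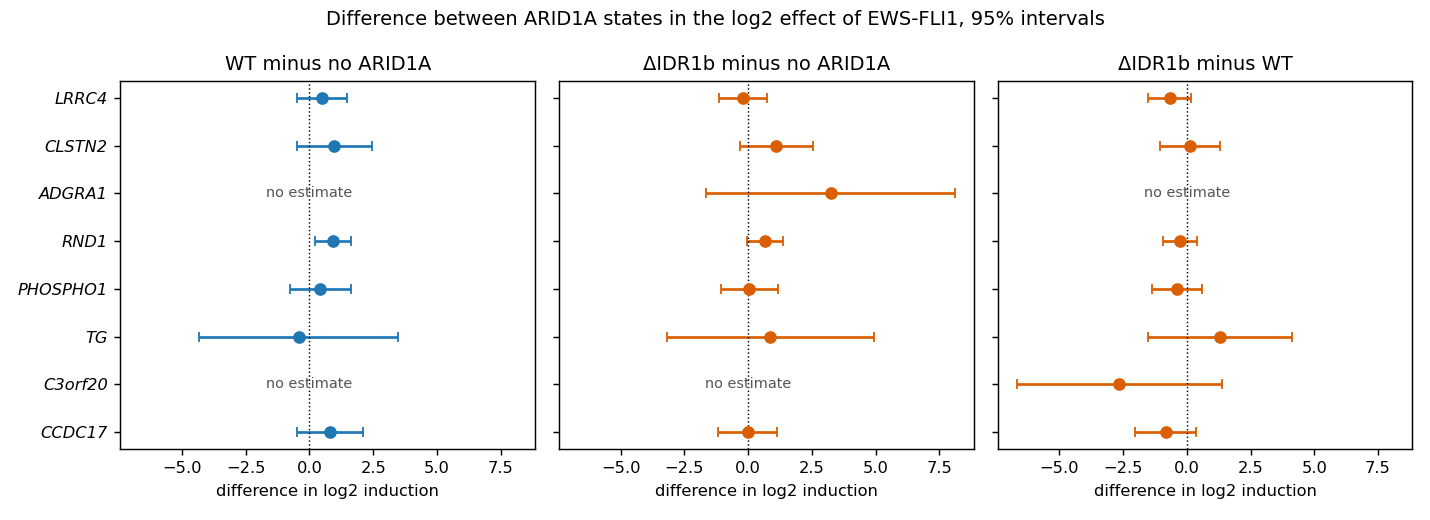
Difference between ARID1A states in the log2 effect of EWS-FLI1 (x axis) for each gene (y axis), with 95% intervals from the quasi-likelihood fit. Of the 20 intervals drawn only that of RND1 for WT minus no ARID1A (0.23 to 1.62) leaves out 0, and no estimate is given where a group had 0 counts.

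The levels with EWS-FLI1 did differ between states. Against no ARID1A, 4 members were higher in WT (9.72% of tested genes were called higher) and 6 in ΔIDR1b (18.1% of tested genes). In WT these were CLSTN2 (log2 difference 2.03, SE 0.43, adjusted p = 0.000657 by edgeR), RND1 (1.52, SE 0.22, adjusted p = 8.55e-06), LRRC4 (1.39, SE 0.27) and PHOSPHO1 (1.24, SE 0.33). TG was 1.89 higher on the log2 scale with an adjusted p of 0.0583. C3orf20 and CCDC17 differed by 0.14 (-1.75 to 2.03) and 0.18 (-0.64 to 0.99), and ADGRA1 by 0.59 (-1.61 to 2.80). PHOSPHO1 was not called without the first EWS-FLI1 library of no ARID1A, and TG was called without either empty-vector library of WT. The CLSTN2 difference was 1.47 without the first and 2.95 without the second EWS-FLI1 library of no ARID1A, and that of TG was 1.27 and 3.02.

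In ΔIDR1b against no ARID1A the largest difference with a call was that of CLSTN2 (log2 2.92, SE 0.42, adjusted p = 6.91e-07 by edgeR). TG (2.42, SE 0.71), PHOSPHO1 (2.02, SE 0.32), LRRC4 (1.58, SE 0.27), CCDC17 (1.17, SE 0.38) and RND1 (0.90, SE 0.23) were also higher. For all 8 genes both ΔIDR1b libraries lay above both libraries of no ARID1A. The share of all tested genes that lay apart in this way is not given here, so nothing is read from that count. ADGRA1 and C3orf20 did not pass the test, with 2.19 (0.14 to 4.24) and 1.45 (-0.32 to 3.22). CCDC17 and TG were not called without the first EWS-FLI1 library of either state, nor CCDC17 and RND1 without the second of no ARID1A, which left 4 calls in each case.

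Between ΔIDR1b and WT with EWS-FLI1, 6 members had both ΔIDR1b libraries above both WT libraries, but 0 were called higher (8.48% of tested genes were). For the 6, too, the share of all tested genes lying apart is not given. RND1 was called lower, by -0.61 (SE 0.21, adjusted p = 0.0367 by edgeR, with 10.1% of tested genes called lower). CCDC17 (1.00, 0.24 to 1.75), CLSTN2 (0.89, 0.20 to 1.58) and PHOSPHO1 (0.79, 0.20 to 1.37) had unadjusted p-values of 0.011, 0.013 and 0.00997 and adjusted p-values from 0.0523 to 0.0625. Of all tested genes 31.9% had an unadjusted p under 0.05 by edgeR in this contrast. These calls moved with the settings. RND1 was not called by DESeq2, which called 0 members, nor with upper-quartile factors, library totals or only the groups compared, and was lost without the second WT library or either ΔIDR1b library. With a replicate block within each vector 3 were called, CLSTN2 and PHOSPHO1 higher and RND1 lower. The same 3 were called without either empty-vector library of no ARID1A. CLSTN2 joined RND1 without the first EWS-FLI1 library of no ARID1A, and CCDC17 joined it without either empty-vector library of WT, for 2 calls each.

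With the empty vector 5 of the 8 members were higher in ΔIDR1b than in no ARID1A (16.4% of tested genes). They were PHOSPHO1 (log2 1.97, SE 0.45, adjusted p = 0.000472 by edgeR), CLSTN2 (1.81, SE 0.56), LRRC4 (1.76, SE 0.37), CCDC17 (1.19, SE 0.42) and C3orf20 (16 counts against 0). The exact counting interval put the C3orf20 ratio at 3.74 or more. At the floor of 3 counts for no ARID1A the ratio was 5.17, which leaves out the counting error of the 16 counts. The other 3 did not pass: RND1, TG (log2 1.54, -2.26 to 5.34) and ADGRA1 (1 count against 2). With only the groups compared in the fit, 5 members passed the filter and 4 were called, C3orf20 not among them. Against WT 4 members were higher in ΔIDR1b (11.1% of tested genes), namely C3orf20 (3.95, SE 1.80), CCDC17 (1.82, SE 0.45), PHOSPHO1 (1.17, SE 0.39) and LRRC4 (0.86, SE 0.33). Between WT and no ARID1A 0 members were called higher or lower by edgeR or by DESeq2 (6.5% of tested genes were called higher). By edgeR 2, LRRC4 and RND1, had an unadjusted p under 0.05, as did 25.8% of all tested genes. LRRC4 was called without the second empty-vector library of no ARID1A. RND1 differed between ΔIDR1b and no ARID1A by 0.26 (-0.28 to 0.79).

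The 5 calls against no ARID1A became 2 (LRRC4 and PHOSPHO1) without the first library of no ARID1A or the second of ΔIDR1b, and 3 without the second of no ARID1A. Leaving out the first or the second library of no ARID1A gave 1.29 or 3.30 for PHOSPHO1, 1.18 or 2.93 for CLSTN2 and 1.21 or 2.67 for LRRC4 on the log2 scale. Without the second WT library the C3orf20 difference from WT was 5.97 with WT at 0 counts, a fitted value and no bound. The 4 calls against WT became 2 by DESeq2, 0 without the first WT library and 1 without the second WT or the first ΔIDR1b library. They became 2 (CCDC17 and PHOSPHO1) without the second empty-vector library of ΔIDR1b or any EWS-FLI1 library of ΔIDR1b or no ARID1A. Scaling to library totals alone raised the median of all genes for ΔIDR1b by 0.10 to 0.17 on the log2 scale, and raised the share of calls that were higher from 45.6% to 72.5% for ΔIDR1b against WT with EWS-FLI1 and from 45.4% to 72.1% without it (56.1% with upper-quartile factors). Against no ARID1A this share for ΔIDR1b went from 50.3% to 61.5% with EWS-FLI1 and from 49.4% to 64.0% without it. For WT against no ARID1A upper-quartile factors lowered it from 53.8% to 42.2% with EWS-FLI1 and from 55.6% to 39.4% without it (43.7% with library totals). With library totals CCDC17, CLSTN2 and PHOSPHO1 were called higher in ΔIDR1b than in WT with EWS-FLI1, at 0.93 to 1.14 on the log2 scale.

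**Figure D4:**
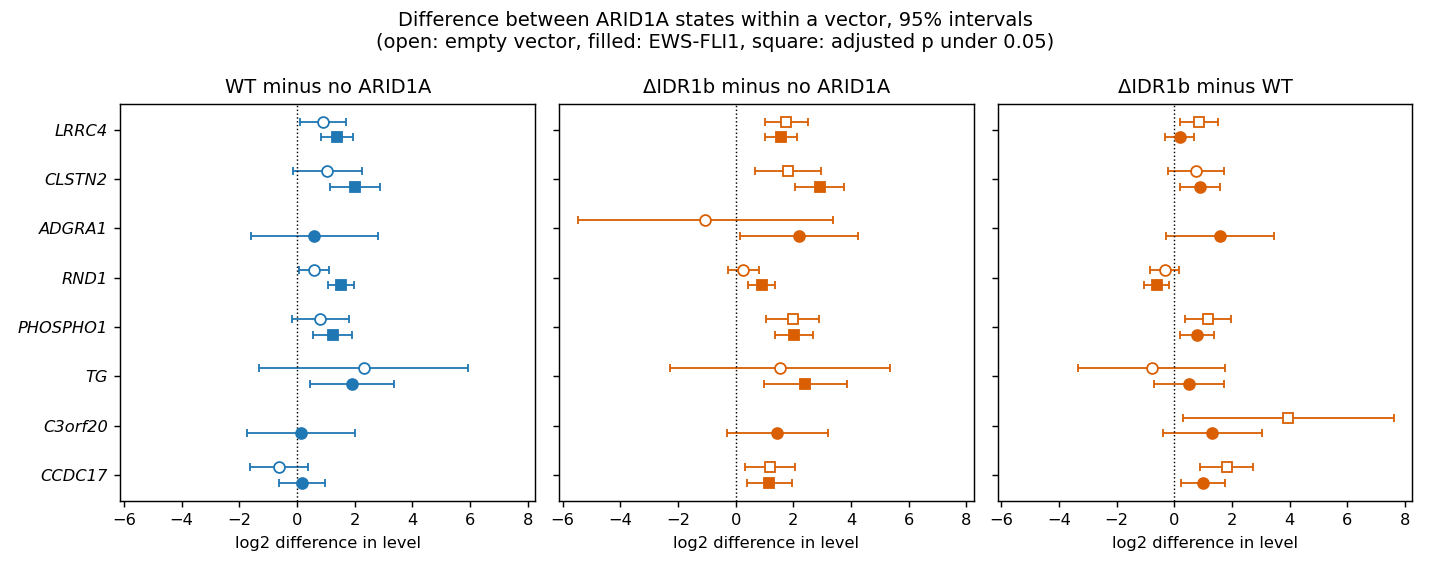
Log2 difference in level between ARID1A states (x axis) for each gene (y axis), open for the empty vector and filled for EWS-FLI1, with 95% intervals and squares for an adjusted p under 0.05. In ΔIDR1b minus no ARID1A the open and filled points of LRRC4, PHOSPHO1 and CCDC17 lie side by side, and values with a group at 0 counts are not drawn.

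Summed over the 8 genes, the level in no ARID1A was 7.05 and 8.44 CPM without EWS-FLI1 and 20.3 and 20.5 CPM with it. In WT it was 12.6 and 10.4 CPM against 48.8 and 56.1 CPM. In ΔIDR1b it was 17.1 and 16.6 CPM against 61.6 and 60.9 CPM. The order ΔIDR1b above WT above no ARID1A held in both vectors without overlap. On the scale of CPM gained, the median over the 8 genes was 0.905 without ARID1A, 3.06 with WT and 5.44 with ΔIDR1b. Of the genes, 6 gained most in ΔIDR1b and 2 (LRRC4 and RND1) in WT, LRRC4 by 10.02 CPM in WT against 9.99 CPM in ΔIDR1b. The median ratio was thus highest in WT and the median gain in ΔIDR1b. These medians are a description, and 0 members were called for a difference between states in the log2 rise.

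The introduced FLI1 was not equal in the 3 states. It stood at 1827 and 1686 CPM in no ARID1A, 3669 and 3456 CPM in WT and 1884 and 1903 CPM in ΔIDR1b, so WT had the most. The summed level of the 8 genes per 1000 CPM of FLI1 was 11.1 and 12.2 without ARID1A, 13.3 and 16.2 with WT and 32.7 and 32.0 with ΔIDR1b. No empty-vector level was taken off before this division. That level averaged 7.74 CPM without ARID1A, 11.5 CPM with WT and 16.8 CPM with ΔIDR1b, so the values are not a rise per FLI1. The part of the FLI1 level in the differences between states was not tested. FLI1 averaged 1756 CPM in no ARID1A and 1893 CPM in ΔIDR1b, and its libraries in these states did not overlap.

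**Figure D5:**
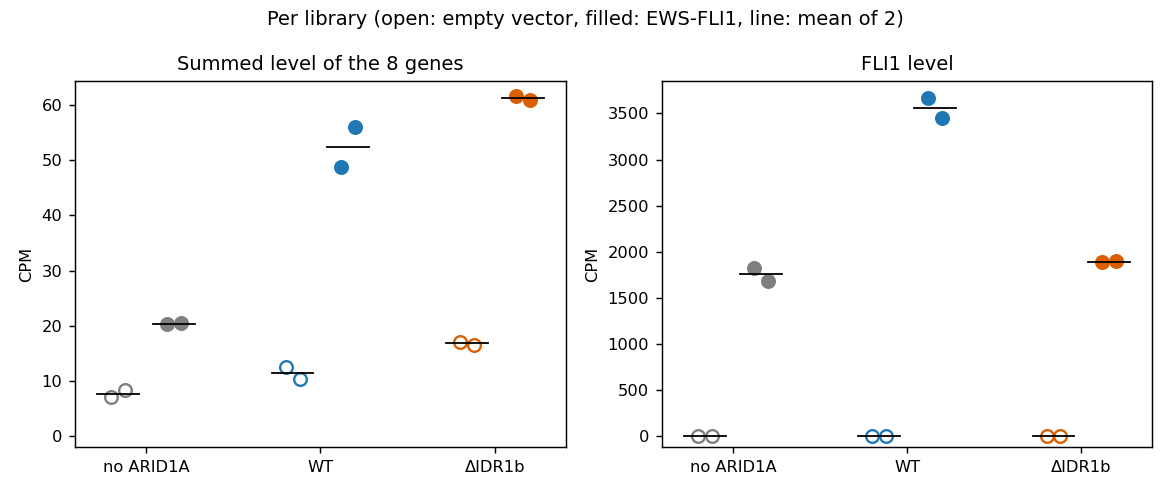
Summed CPM of the 8 genes (left, y axis) and CPM of FLI1 (right, y axis) in each library by ARID1A state, open for the empty vector, filled for EWS-FLI1 and lines for the mean of 2. The summed level with EWS-FLI1 is highest in ΔIDR1b (61.6 and 60.9 CPM), while FLI1 is highest in WT (3669 and 3456 CPM).

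Across the 12 libraries the 8 genes moved alike on the log2 CPM scale, with Pearson's r from 0.507 (CCDC17 and RND1) to 0.979 (PHOSPHO1 and LRRC4) and a median of 0.825 over 28 pairs. All share the same libraries and were chosen for the same rise, so this is a description. Among 16681 other genes, those most like the summed level were CYP4F22 (r = 0.959), THBD (0.954), EPHB3 (0.948), LINC00659 (0.946) and HEATR3 (0.931). THBD encodes thrombomodulin, an anticoagulant receptor, and averaged 0.574 CPM in empty-vector and 6.40 CPM in EWS-FLI1 libraries. Gene by gene, the closest were LINC00659 for LRRC4 (0.932), MYO10 for CLSTN2 (0.955), UGT3A2 for ADGRA1 (0.925), THBD for RND1 (0.957), ZNF540 for PHOSPHO1 (0.946), CYP4F22 for TG (0.961) and ZNF770 for C3orf20 (0.938).

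Of 68 genes within 100 kb of a member, 28 were tested and 0 were called with EWS-FLI1 averaged over states by edgeR, with 0 by DESeq2 and 1 at an unadjusted p under 0.05. Of all tested genes 0.466% were called and 7.90% had such a p, so these counts are near the shares of all genes. The 1 gene was CCN4, a secreted matricellular protein 56136 bp from TG, at 2.44 CPM in empty-vector and 3.78 CPM in EWS-FLI1 libraries. It was called without the second EWS-FLI1 library of no ARID1A or of WT and with a replicate block within each vector. Of the 28, 12 had a log2 difference above 0, with a median of -0.03 beside -0.00 for all tested genes. SND1, which contains LRRC4, averaged 375 CPM in empty-vector and 359 CPM in EWS-FLI1 libraries (log2 difference -0.06, SE 0.05, adjusted p = 0.846 by edgeR). SND1 is antisense to LRRC4 and had 58712 counts in all 12 libraries together, and its part in the LRRC4 counts was not tested. The other antisense genes inside or over the members had few counts. Among them were 8 for CLSTN2-AS1, 5 for ADGRA1-AS1, 4 for SLA within TG and 2 for ENSG00000230172 within C3orf20.

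Relatives and pathway partners of the members were read from 3 lists. Of 13 family relatives and binding partners 12 were tested, of 15 genes of thyroid hormone synthesis 9, and of 11 genes of matrix mineralization 9. With EWS-FLI1, averaged over states, 0 of these 30 were called by edgeR and 0 by DESeq2, and 4 had an unadjusted p under 0.05. With 0.466% of all tested genes called and 7.90% at such a p, these counts say nothing particular about the lists. The median log2 difference was 0.03 for the relatives and binding partners, 0.14 for the thyroid list and -0.01 for the mineralization list. LRRC4B, the closest relative of LRRC4 listed, had 43.5 CPM in empty-vector and 35.7 CPM in EWS-FLI1 libraries. It was called without the second EWS-FLI1 library of WT and with a replicate block within each vector. The other calsyntenins, CLSTN1 (152 and 155 CPM) and CLSTN3 (126 and 123 CPM), and the other RND GTPases, RND2 (25.3 and 26.1 CPM) and RND3 (38.9 and 42.0 CPM), were not called.

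Between ARID1A states some genes of the 3 lists were called, and no test set a list against other genes. In ΔIDR1b against no ARID1A with EWS-FLI1, 7 of the 12 family relatives and binding partners tested were called higher and 0 lower. The relatives were ADGRA2 (log2 0.68), ADGRA3 (0.68), RND2 (0.53) and CLSTN3 (0.38), and the partners NTNG2 (0.72), PLXNB1 (0.58) and ARHGAP35 (0.44). Of all tested genes 18.1% were called higher and 17.9% lower. With the empty vector 5 of this list were called higher and 0 lower, beside 16.4% and 16.8%. They were LRRC4B, NTNG1, ADGRA2, ARHGAP35 and PLXNB1. In WT against no ARID1A with EWS-FLI1 2 relatives, RND2 (0.62) and RND3 (0.65), were called higher, beside 9.72% of tested genes higher and 8.36% lower. Of the 9 thyroid genes tested, 1 was called higher in ΔIDR1b than in no ARID1A with each vector, DUOX1 (1.47) with the empty vector and FOXE1 (0.69) with EWS-FLI1. The transcription factors NKX2-1 (-0.86 without and -1.12 with EWS-FLI1) and HHEX (-0.57 and -0.69) were called lower. In WT against no ARID1A with EWS-FLI1, NKX2-1 (-0.87) and TSHR (-2.77), the receptor for thyrotropin with 122 counts in the 12 libraries, were called lower. Of the 9 mineralization genes tested, 2 were called higher (ANKH and SLC20A2) and 1 lower (ALPL) in ΔIDR1b against no ARID1A with EWS-FLI1. The thyroid and mineralization counts are near the shares of all genes.

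Of 3771 tested genes with a mean under 1 CPM over the empty-vector libraries, 12 were called higher with EWS-FLI1 averaged over states. They were ADGRA1, TG and C3orf20 and 9 others, of which the 5 with the largest fold changes were FLI1 itself, ENSG00000215835, MIR3667HG, SCNN1G and THBD. ENSG00000215835 went from 62 counts over the 6 empty-vector libraries to 6302 over the 6 with EWS-FLI1. MIR3667HG went from 4 to 113, SCNN1G, a subunit of the epithelial sodium channel, from 2 to 65, and THBD from 47 to 517. ADGRA1 went from 3 to 58, TG from 9 to 153 and C3orf20 from 17 to 67 counts.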

How the data were processed

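Per the file headers, the authors counted read pairs with both ends aligned over exons by gene name with featureCounts 2.0.1 (GENCODE release 41, GRCh38 patch 13), without a strand option, multi-mapping or multi-overlapping pairs. The deposited values are raw counts. STAR, SAMtools and edgeR are named in the submitters' processing notes, and STAR's version is not given in the sources used here. With edgeR 4.0.16 (R 4.3.3), 1 quasi-likelihood model with a mean per group took in the 12 libraries after filterByExpr (minimum count 10, minimum total 15) and TMM scaling. Common biological variation was 10.1%, and the value fitted for the members ran from 13.0% (RND1) to 44.1% (ADGRA1). Adjusted p-values are Benjamini-Hochberg over the 20377 genes of each contrast, threshold 0.05. Log2 differences of members are unshrunk, with Wald SEs and 95% t intervals. CPM and RPKM use TMM-scaled sizes. Counting intervals are exact and conditional on totals (scipy 1.17.1), and member counts of 0 took a floor of 3 counts per group. In the ratios of all tested genes, every empty-vector group count under 3 was raised to 3. Floors and intervals cover counting error only, and a floor leaves out the error of the other group's counts. The procedures were tested on simulated data. Changes were put only into genes with a mean of at least 1 CPM, and the 3-count floor was not tested. DESeq2 1.42.0, other scalings, filters, blocks and omission of each library were alternatives. Members and lists were chosen with earlier results of these data known. Named genes were the members, the introduced genes, genes called in a list or neighbourhood, genes overlapping a member, the most alike profiles and the 5 largest rises among other low genes. CCN4, LRRC4B, CLSTN1, RND3, NEFM and the other uncalled list genes were named after their values were seen. A few results are not reported here.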

Additional observations from a re-analysis of the deposited data

How the results depend on the processing

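Members, 72 values between states in all, were recomputed under up to 21 alternatives each (1488 values): 1388 kept direction and side of the threshold, 47 lost a call, 23 gained one and 30 changed sign, none of the latter with an adjusted p under 0.05 in either fit. The interactions stayed at 0 members called under every alternative, DESeq2 included. For ΔIDR1b against WT with EWS-FLI1 (1 called), 2 were called with upper-quartile factors, 3 with library totals, 0 by DESeq2 and 2 with only the groups compared, and 0 to 3 leaving out 1 library. With the empty vector (4 called), 2 were called by DESeq2 and 2 with only the groups compared, and 0 to 4 leaving out 1 library. Leaving out 1 library gave 2 to 5 calls for ΔIDR1b and 0 to 1 for WT against no ARID1A with the empty vector, 5 to 8 with EWS-FLI1 on average, 0 to 1 neighbours (CCN4) and 0 to 1 related genes (LRRC4B). Median ratios ran from 2.31 to 3.89 in no ARID1A, 5.01 to 5.39 in WT and 3.63 to 4.41 in ΔIDR1b, with genes at 0 empty-vector counts at the bound of the floor.

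Equal repeat numbers share only a number in the labels. Deviations correlated between groups at r = 0.104 to 0.412 within a vector and -0.223 to -0.008 across vectors (10692 genes). The replicate block over all 12 libraries left each count within 1.5 times. The replicate block within each vector gave 3 members for ΔIDR1b against WT with EWS-FLI1, 1 neighbour and 1 related gene. The crossed replicate block gave 3 members there and 1 related gene. No other count moved by more than 1.5 times.

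Sign changes came from leaving out 1 library, except ADGRA1 for the interaction ΔIDR1b minus WT, which was 0.18 by DESeq2. Log2 ranges were, for the interaction WT minus no ARID1A, LRRC4 -0.42 to 1.04, CLSTN2 -0.15 to 1.89, PHOSPHO1 -0.90 to 1.11, TG -2.50 to 0.90 and C3orf20 -3.02 to 0.15. For ΔIDR1b minus no ARID1A they were LRRC4 -1.10 to 0.37, CLSTN2 -0.0131 to 2.03, ADGRA1 -0.12 to 5.31, PHOSPHO1 -1.28 to 0.73, TG -1.25 to 2.00 and CCDC17 -0.11 to 0.0756. For ΔIDR1b minus WT they were CLSTN2 -0.0500 to 0.35, ADGRA1 -1.53 to 1.57, RND1 -0.64 to 0.00574 and TG -0.0321 to 1.99. Between states they were C3orf20 -0.44 to 0.55 (WT against no ARID1A, EWS-FLI1), ADGRA1 -3.15 to 2.27 (ΔIDR1b against no ARID1A, empty vector), and RND1 -0.63 to 0.0272 and TG -1.47 to 0.55 (ΔIDR1b against WT, empty vector). The causes were not tested. Values where a group is at 0 are fitted, with a prior count. A search for GGAA within 100 kb was not run, since no genome was used here. Depth limits ADGRA1, TG and C3orf20, with 3, 9 and 17 empty-vector counts.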
